A study of Mus musculus with 7 samples.

Results

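Tooth tissue of mice at postnatal day 2 shared a set of open chromatin regions that were missing from the strongest peaks of embryonic jaw ectoderm. From each of 7 libraries of ATAC-seq, which reads out where a transposase can reach DNA, the 38000 peaks with the smallest p-values on chromosomes 1 to 19 were taken. Peaks of all libraries that share at least 1 bp were merged into 77136 regions. A total of 4853 regions had a peak in all 5 postnatal libraries and in neither ectoderm library, which is 6.29% of all merged regions. These 4853 regions are the members described here. They were chosen by the deposited peaks and their p-values, so their absence from ectoderm and their presence in teeth are a definition and not a result.

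The ectoderm came from the first pharyngeal arch, the source of the jaws, peeled from its mesenchyme at embryonic day 11.5 (2 libraries). Sox2-positive cells were sorted at postnatal day 2 from the labial cervical loop of lower incisors (2 libraries). The mice carried Sox2-GFP, a reporter driven by the Sox2 promoter itself, and the labels call the cells DESC, dental epithelial stem cells. Whole teeth of the same age gave the other 3 libraries, 1 each from lower incisor, lower first molar and upper first molar. No strain, pooling of animals or genotype of the other groups is given, and no label says that numbered replicates came from separate animals. Stage and tissue differ together between the ectoderm and the teeth, so the effects of age, of tissue and of the mixture of cells cannot be told apart. In a bulk library, fewer cells with a site open and less opening per cell also cannot be told apart.

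Many sites that stay open in every cell type are promoters, the sequences just before the start of a gene. Sites that differ between cell types and stages lie more often away from gene starts, and many such sites act as enhancers, to which transcription factors bind to raise the activity of genes that may be far away. In the tooth, epithelial ameloblasts make enamel and mesenchymal odontoblasts make dentine. The cervical loop holds the progenitors from which the incisor epithelium is renewed.

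The deposited lists held 39017 to 82461 peaks. The limit of 38000 therefore used 47.0% and 76.4% of the ectoderm peaks on these chromosomes, 90.8% and 99.1% of the Sox2-positive peaks and 55.2% to 61.2% of the whole-tooth peaks. Read depth is unknown. Start sites of marker genes were used to check the labels: a start was called open in a library when its window, from 250 bases before to 50 after the start, met a peak. Among 8 general epithelium genes with a start window, 8 were open in Sox2-positive replicate 1, 6 in replicate 2 and 4 to 8 in the whole teeth. Of 15 dental epithelial progenitor genes, 15 were open in each Sox2-positive library, 11 or 12 in the whole teeth and 12 and 15 in the ectoderm. Among 18 genes of dental mesenchyme and odontoblasts, 10 were open in Sox2-positive replicate 1, 14 in replicate 2, 10 to 12 in the whole teeth and 7 and 9 in the ectoderm. Endothelial starts were open at 2 of 8 genes in Sox2-positive replicate 1, at 5 in replicate 2, at 1 or 2 in the whole teeth and at 3 in each ectoderm library. At most 1 of 8 blood and immune starts was open in any library. Sox2-positive replicate 2 thus stood apart from replicate 1 at some starts of the lists for other cell types. Among them were Pdgfra, Tie1 and Eng, which were open in the whole incisor too. Postn, Lhx8 and Flt1 were others, open in no whole tooth. Flt1 was open in both ectoderm libraries, and Lhx8 in ectoderm replicate 2. A member at an end of Pdgfra (chr5:75151181-75151646) had a signal of 450 in replicate 1 and 272 in replicate 2. The starts of Krt5, Krt14, Epcam and Dsp, which mark epithelium, were open in both Sox2-positive replicates, and those of Grhl3 and Ovol2 in replicate 1 but not in replicate 2. Without Sox2-positive replicate 2 the rule gave 5682 regions, and without replicate 1 it gave 5610. The part of these differences in the results was not tested.

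Sequence is shown first for members over gene starts, a small part of the set (166 of 4853, 3.42%). For 5 of them the 300 bases around the start are shown, 5′ to 3′ on the strand of the gene, from RefSeq on GRCm38.p6. They are the starts of 2 RUNX transcription factors, of an enamel protein, of a bone and dentine protein and of a microRNA host, and all 300 bases of each lie under the member. Capitals mark the RUNX motif TGTGGT or its reverse complement ACCACA, found by a search of both strands. The AP-1 motif TGANTCA was found in none of the 5.
Runx3, chr4:135120395-135120694, plus strand: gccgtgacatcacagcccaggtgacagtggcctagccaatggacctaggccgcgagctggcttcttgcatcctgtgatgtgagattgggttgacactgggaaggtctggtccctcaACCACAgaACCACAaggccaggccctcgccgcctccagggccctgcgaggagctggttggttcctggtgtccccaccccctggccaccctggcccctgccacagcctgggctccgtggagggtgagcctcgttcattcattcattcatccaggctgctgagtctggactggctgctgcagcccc
Runx2, chr17:44814578-44814877, minus strand: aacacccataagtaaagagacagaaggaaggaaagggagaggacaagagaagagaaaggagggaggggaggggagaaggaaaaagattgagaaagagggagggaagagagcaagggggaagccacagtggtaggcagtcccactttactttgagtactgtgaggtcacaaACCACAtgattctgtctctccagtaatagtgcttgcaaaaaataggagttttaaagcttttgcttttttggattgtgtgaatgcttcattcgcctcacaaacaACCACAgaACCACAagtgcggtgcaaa
Ambn, chr5:88455741-88456040, plus strand: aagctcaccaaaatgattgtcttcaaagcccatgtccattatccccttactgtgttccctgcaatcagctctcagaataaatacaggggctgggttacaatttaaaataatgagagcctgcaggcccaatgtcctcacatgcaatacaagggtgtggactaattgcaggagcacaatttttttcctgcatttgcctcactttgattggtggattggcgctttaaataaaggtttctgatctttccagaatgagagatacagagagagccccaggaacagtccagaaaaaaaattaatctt
Ibsp, chr5:104299037-104299336, plus strand: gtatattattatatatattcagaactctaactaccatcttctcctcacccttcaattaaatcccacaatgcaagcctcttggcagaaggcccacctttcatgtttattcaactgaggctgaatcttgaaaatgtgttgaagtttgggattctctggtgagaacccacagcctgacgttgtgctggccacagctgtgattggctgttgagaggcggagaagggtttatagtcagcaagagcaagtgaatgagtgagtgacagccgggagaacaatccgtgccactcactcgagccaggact
Dnm3os, chr1:162217373-162217672, plus strand: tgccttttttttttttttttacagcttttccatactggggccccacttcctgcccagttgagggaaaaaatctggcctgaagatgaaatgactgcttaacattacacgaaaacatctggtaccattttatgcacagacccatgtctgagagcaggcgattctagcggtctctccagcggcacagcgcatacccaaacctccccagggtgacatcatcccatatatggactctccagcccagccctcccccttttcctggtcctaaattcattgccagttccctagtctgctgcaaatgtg

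Members were distal sites. Only 166 of 4853 members (3.42%, Wilson 95% interval 2.94 to 3.97) were centred at most 1 kb from an end of any protein-coding gene, against 58.6% of the 14786 regions found in all 7 libraries. The difference was −55.2 percentage points (Newcombe 95% interval −56.1 to −54.2) and had the same sign on 19 of 19 chromosomes. Over all 77136 merged regions the share was 16.8%. The 9896 regions that both ectoderm libraries had and no postnatal library had are a closer match. Of these, 7.30% lay at a gene end, and members were lower by 3.88 points (−4.59 to −3.14), again on 19 of 19 chromosomes. Regions open in both Sox2-positive libraries alone had 5.52%, and those open in the 3 whole teeth alone had 2.57%. The difference from the latter was 0.853 points with an interval from −0.239 to 1.75, which spans 0. These intervals cover the counting of regions and not the spread between animals.

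The median member lay 27.4 kb from a gene end, against 0.49 kb for regions in all 7 libraries and 26.7 kb for the ectoderm regions. Members inside a gene but over 1 kb from its ends made up 53.8%, and members between genes 42.8%. Over all merged regions these shares were 45.5% and 37.7%. A total of 823 members (17.0%) lay over 100 kb from any gene end, near the 15.7% of all merged regions and below the 21.6% of ectoderm alone. The share of a chromosome's regions that were members ran from 5.10% on chromosome 7 to 6.86% on chromosome 8. Without ectoderm replicate 2 the share of members at a gene end was 5.18%, the largest move from leaving out any library.

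**Figure D1:**
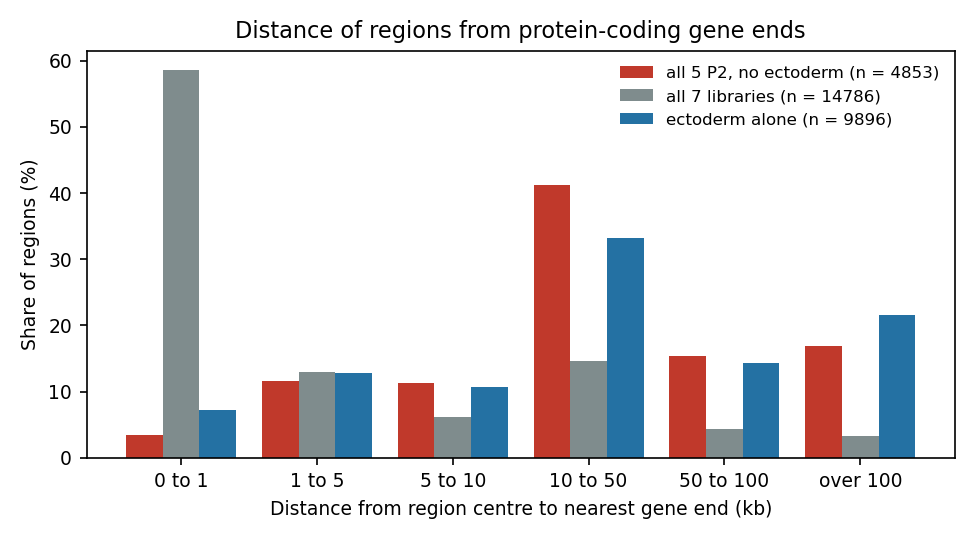
Share of regions (%, bars from 0) by distance from the region centre to the nearest protein-coding gene end (kb), for members, regions in all 7 libraries and regions in ectoderm alone. Members peak at 10 to 50 kb (41.1%), while 58.6% of regions in all 7 libraries lie within 1 kb.

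Members were narrower than sites shared by all libraries and wider than sets found in fewer libraries. Their median width was 846 bp, and 5% to 95% of them spanned 479 to 1601 bp. The median was 1261 bp for regions in all 7 libraries over 1 kb from a gene end and 667 bp over all merged regions. It was 691.5 bp for ectoderm alone, 551 bp for Sox2-positive cells alone and 579 bp for whole teeth alone. Merging peaks of more libraries can widen a region, so these widths are not on equal terms. In 4553 members (93.8%) each of the 5 postnatal libraries had exactly 1 peak. The summits of the 5 libraries fell within 100 bp of each other in 3254 members (67.1%), with a median range of 63 bp, against 71.0% and 55 bp for distal regions in all 7 libraries. In 182 members the summits were spread over more than 500 bp, so that the libraries need not share 1 site there.

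Not every member lacked ectoderm signal. The ectoderm lists go on below the limit, and 1348 members (27.8%, 26.5 to 29.1) met a deposited ectoderm peak further down. Ectoderm replicate 1, with the longest list, had such a peak at 1329 members, at a median rank of 58040. Replicate 2 had one at 437 members, at a median rank of 44230, and 418 members had one in both. The other 3505 members (72.2%) met no deposited ectoderm peak at all. By position, 75 of the 166 members at gene ends (45.2%, 37.8 to 52.8) met a weak ectoderm peak, against 27.2% of the distal ones. The share rests on ectoderm replicate 1: when the rule was applied without that library, it was 12.3%. The same share was 24.5% in regions of Sox2-positive cells alone and 14.5% in regions of whole teeth alone.

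**Figure D2:**
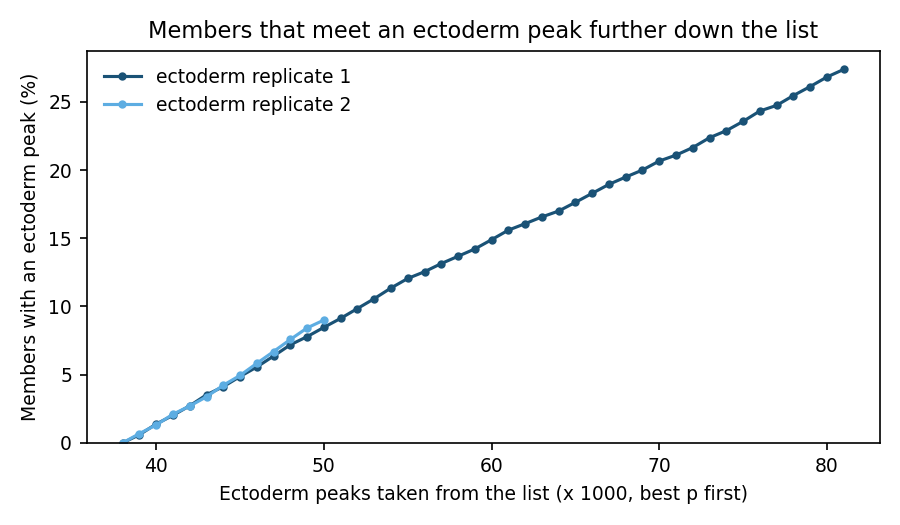
Cumulative share of members (%) that meet an ectoderm peak as the ectoderm list is taken further (x axis, peaks in units of 1000, smallest p first), for each ectoderm library. The curves lie close together until replicate 2 ends, at 437 members, and replicate 1 goes on to 1329 members (27.4%).

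Near the limits the choice of members rests on small differences in rank. Just inside, the member near Bri3 (chr5:144261694-144262330) had rank 37999 in upper molar, and a member in Slc20a2 had rank 37997 in Sox2-positive replicate 1. Just outside, a region between genes, 573 kb from its nearest gene Klf4 (chr4:56104750-56105357), missed membership with rank 38008 in Sox2-positive replicate 1. On the ectoderm side, the member near Ext1 had a peak at rank 38011 in replicate 2, and a region near Mvp was left out by an ectoderm peak at rank 37972 in replicate 1.

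Among the postnatal libraries the members ranked in the middle of the lists, where rank 1 has the smallest p-value. Their median ranks were 16676 and 16840 for the sorted cells, then 13700 for incisor, 16122 for lower molar and 16688 for upper molar. Distal regions in all 7 libraries had median ranks of 11558 to 13359 in these libraries, and those at gene ends 6194 to 7302. The deposited peak signal, which was not normalized between libraries, had medians over members of 658 and 623 for the sorted cells, against 1217, 1252 and 1245 for incisor, lower and upper molar.

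**Figure D3:**
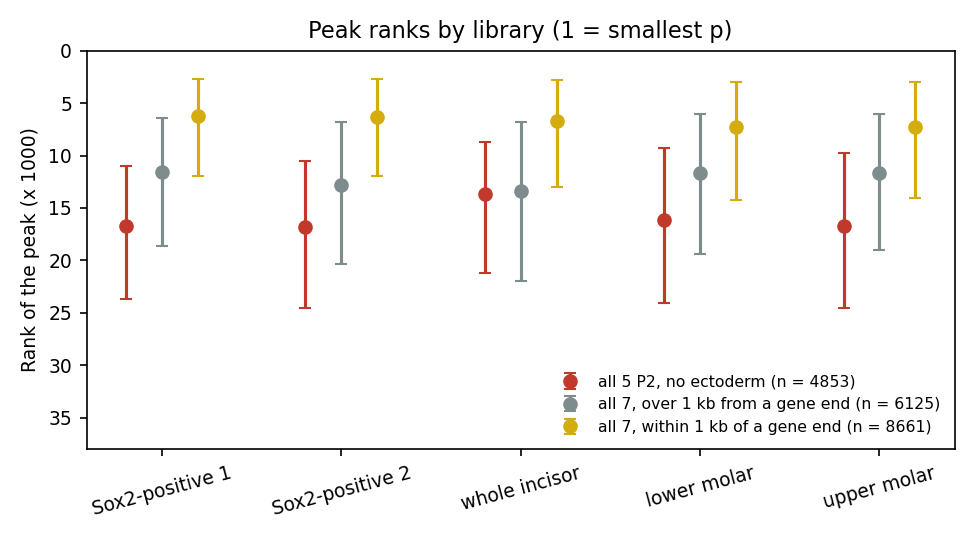
Median rank of the peak (points, in units of 1000, rank 1 at the top being the smallest p) and the quartile range (bars) in each postnatal library. Members sit lower in the lists than distal regions of all 7 libraries in all 5 libraries, with the smallest gap in the whole incisor (13700 against 13359).

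Ranks were then compared between the sorted cells and the whole teeth, as a description, because ranks in these lists chose the members. In 367 members (7.56%) both Sox2-positive libraries ranked above all 3 whole teeth, against 16.3% of the 20304 regions with a peak in all 5 postnatal libraries. In 898 members (18.5%) all 3 whole teeth ranked above both Sox2-positive libraries, against 13.3% of the same regions. With a library left out, fewer ranks have to be apart, so higher counts there cannot show dependence on a single library. Without Sox2-positive replicate 1 they were 1083 and 1913 of 5610 members, and without replicate 2 they were 1046 and 1848 of 5682. Without the incisor they were 1462 and 1976 of 5531. With all deposited peaks in place of 38000 the order turned, to 851 and 741 of 5925 members. There the Sox2-positive lists held 41829 and 38326 peaks and the whole-tooth lists 62074 to 68877. Tooth ranks could thus run further down, and the 2 orders are not on the same scale. The share over all regions is not given for these settings.

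Ranks across members were most alike between the lower and the upper molar, with a Spearman rank correlation of 0.89 over 4853 regions. Sox2-positive replicate 2 was closer to the whole incisor (0.65) than to Sox2-positive replicate 1 (0.48). Its correlation was 0.15 and 0.16 with the molars, where replicate 1 had 0.39 with each. Distal regions in all 7 libraries gave 0.79 between the Sox2-positive replicates and 0.83 between replicate 2 and incisor. Regions are not independent replicates, the lists differ in depth, and the members' ranks are limited by the rule. The mesenchymal starts open in replicate 2 stand beside this order, and their part in it was not tested.

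The 5 members most shifted toward sorted cells and the 5 most shifted toward whole teeth show how far ranks differed. Near Fads2b (chr2:85531872-85532705) the signal was 2001 and 1596 for the sorted replicates 1 and 2, then 1011, 967 and 1464 for incisor, lower molar and upper molar. In Sdc1, which encodes syndecan-1, a proteoglycan of epithelial cells (chr12:8786337-8787788), the values were 1917 and 2082 against 2316, 597 and 934. The incisor signal of Sdc1 was thus the highest, although its rank of 7588 was below both Sox2-positive ranks, 4745 and 3632. The other 3 lay in Slc25a13, near Tex52 and in the desert before Tcf4. Toward whole teeth, the member in Il1a, the gene of interleukin 1 alpha (chr2:129300167-129300914), had 311 and 275 in Sox2-positive cells and 1354, 2101 and 2096 in the teeth. Near Chrna7, a nicotinic receptor gene, the values were 233 and 205 against 1435, 1601 and 1084. The members near Stn1, in Gprc5b and near Plxna2 were the other 3.

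The 12 members outside chromosome 18 with the best mean signal rank over the 5 libraries are described next. On chromosome 18, which the naming rule leaves out, a member 50.5 kb from Bambi ranked between the first and the second of these. The first of all 4853 lay in Dnm1, the gene of the vesicle-cutting enzyme dynamin 1 (chr2:32316691-32319014). Its signal was 3992 and 4712 in the sorted cells, then 5865, 4527 and 4508 for incisor, lower molar and upper molar. It met ectoderm peaks below the limit, at ranks 47702 and 40873. A member 59.3 kb from Msx2, a homeobox gene of tooth and skull (chr13:53530710-53533358), had 2405, 2559, 4509, 5837 and 5057 in the same order and no ectoderm peak. A member 47.2 kb from the homeobox gene Irx5 (chr8:92407852-92409414) had 2381, 2878, 4044, 5880 and 5928, with the molars highest. A member 76.8 kb from the homeobox gene Emx2 (chr19:59541412-59542998) had 3232, 3626, 4512, 3313 and 3655, with the incisor highest.

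A member of 3500 bp between Wnt7b and Ppara (chr15:85668824-85672323), 64.3 kb from Ppara, had 3035, 4609, 5171, 3365 and 4286. In Nfix, a nuclear factor I gene, a member of 4424 bp (chr8:84740171-84744594) had 2572, 3577, 4767, 4155 and 3545, and ectoderm peaks below the limit at ranks 42276 and 43718. The other 6 lay in Nckap5, Trio and Chd9 and nearest to Gm39147, Banf2 and Adgrb1, the last of these 329 kb from the gene. In all 12 the highest signal was that of a whole tooth, and whole-tooth signals were higher over members as a whole too.

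**Figure D4:**
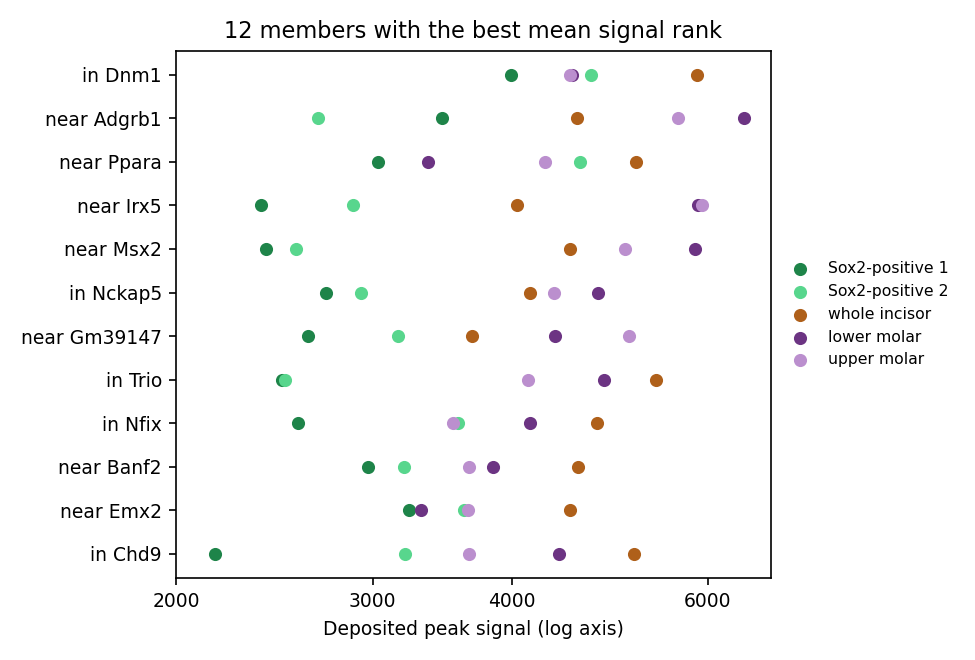
Deposited peak signal (log axis) of the 12 members outside chromosome 18 with the best mean signal rank, 1 point per postnatal library. Whole incisor (brown) or a molar (purple) holds the highest value in each row, and Sox2-positive replicate 1 (dark green) the lowest in all but the row near Adgrb1.

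A start window was counted under a region when its start site lay in that region. The start windows of RefSeq lay under 166 members, of which 62 were also counted at a gene end by the rule on centres. They covered 88 protein-coding genes and 87 long noncoding RNAs. Over the start of Runx3, a transcription factor gene, the signal was 2613 and 3903 in the sorted cells, 4088 in the incisor and 2058 and 2024 in the molars. The genes singled out here and in the next paragraph were chosen for their known roles after the values were seen, and do not stand for the rest. At Runx3 this was the first of 2 starts, and no ectoderm peak lay there at any rank. At Runx2, the regulator of bone and odontoblast formation, the values were 263, 1176, 1328, 545 and 763. Sox2-positive replicate 1 was the lowest there and replicate 2 lay beside the incisor. That region lies inside the neighbouring gene Supt3 as well.

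At Ambn, which encodes the enamel protein ameloblastin, the values were 555 and 395 for the sorted cells, then 1627, 1047 and 1108 for the teeth. At Ibsp, which encodes bone sialoprotein, they were 234, 566, 513, 1007 and 1403, with the molars highest. Neither start met an ectoderm peak. Emilin1, an elastic fibre gene, had 1222, 2627, 4272, 2197 and 1558, and a weak peak at rank 80593 in ectoderm replicate 1. The start of Nfix under a member was the third of 4, with 602, 793, 983, 3410 and 3551 and weak ectoderm peaks in both libraries. Others were the starts of the matrix genes Aebp1 and Pcolce, of Islr, which marks mesenchymal stromal cells, of Cd44 and of Ctsk, the collagen-cutting protease of osteoclasts. Aebp1, Pcolce, Islr and Cd44 met weak peaks in both ectoderm libraries, and Ctsk met none.

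Of the members centred at a gene end, those with the best signal ranks named further genes. Near an end of Snai1, a factor that represses epithelial genes (chr2:167542872-167544648), the signal was 1659, 2220, 3567, 2498 and 2619, with weak ectoderm peaks at ranks 47625 and 45218. At Tbx2, a T-box gene (chr11:85831714-85833593), it was 1475, 2744, 4039, 2075 and 2037. At Adamts4, an aggrecan-cutting protease gene (chr1:171262407-171264024), it was 2277, 2197, 3846, 4111 and 4343. The incisor was highest at Snai1 and Tbx2, and the molars at Adamts4. The start of Fcgrt, the receptor that protects antibodies from breakdown, had 2442, 3069, 4295, 3024 and 2747. Weak ectoderm peaks lay at Adamts4 in both libraries (ranks 64819 and 49021). In ectoderm replicate 1 alone they lay at Tbx2 (47594) and Fcgrt (73134). The rest of the first 10 lay at Dnajc17, Letm2, Cyb561, Arrdc4 and Gga1, beside Runx3.

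The protein-coding starts under members had fewer CG dinucleotides than all such starts, and the noncoding ones did not. Over the 93 protein-coding windows under members the median was 6 CG in 300 bases, against 23 at starts under regions in all 7 libraries, 13 at starts in ectoderm alone and 14 over all windows. Windows with at most 5 CG made up 47.3% (37.5 to 57.4) under members, 2.70% in all 7, 17.7% in ectoderm alone and 31.4% of all windows. Some windows overlap, so that interval is too narrow. The 97 windows of long noncoding RNAs had a median of 5 CG, against 4 over all noncoding windows, and 54.6% of them had at most 5, against 64.0%. Of the 88 protein-coding genes, 28 had more than 1 start in the table, and 13 of these had another start under a region in all 7 libraries. Without ectoderm replicate 2, 330 windows lay under members in place of 190.

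A search of 30 motifs on both strands in the 190 windows described their letters. Of these, 97 belonged to long noncoding RNAs, against 11311 of all 31396 windows and 1387 of the 11384 under regions in all 7 libraries. Windows of nearby starts overlap, as at the 3 starts of Gm34022. They were counted as separate, so the intervals below are too narrow. The RUNX motif TGTGGT was in 46 (24.2%, 18.7 to 30.8), against 16.7% of all 31396 windows and 11.1% of those under regions in all 7 libraries. The AP-1 motif TGANTCA was in 27 (14.2%, 9.95 to 19.9), against 7.84% and 3.79%. The difference from all windows was 7.52 percentage points for RUNX (Newcombe 95% interval 1.96 to 14.1) and 6.37 for AP-1 (2.10 to 12.05). The nuclear factor I motif TTGGCA was in 22.6% against 14.1% of all windows, and the SOX motif ACAAAG in 25.8% against 18.6%. Also higher were the bHLH motif CAGCTG (22.1% against 16.3%) and the forkhead motif TGTTTAC (6.84% against 3.71%). Lower than in all windows were CCGCCC of KLF and SP factors (28.9% against 36.0%), the AP-2 motif GCCNNNGGC (10.5% against 16.7%) and the ETS motif CCGGAA (9.47% against 15.1%). The 659 windows of ectoderm alone had 11.2% for RUNX, 6.53% for AP-1, 14.7% for nuclear factor I and 17.0% for SOX. They had 46.1% for KLF and SP, 21.7% for AP-2 and 9.41% for ETS, the last near that of members. The median GC content was 55% at members' coding starts, against 57% over all coding windows and 62.7% in all 7. At noncoding starts it was 51.7%, against 48.3% over all noncoding windows. The part of base composition, and of the mix of coding and noncoding starts, in these shares was not tested. For the motifs of TEAD, homeodomain, LEF and MEIS factors the interval of the difference from all windows spanned 0. RUNX motifs at the start of Runx3 numbered 2 and at that of Runx2 3, as printed above. Members over no start in the table, the large majority, were not searched, since no genome sequence was used here.

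The genes next to distal members were mostly open at their starts in the ectoderm as well. Distal members had 2807 nearest protein-coding genes within 100 kb, of which 2187 had a start window. The start lay in a merged region with a peak of both ectoderm libraries at 77.1% of these (75.3 to 78.8). It lay in one with a peak of all 5 postnatal libraries at 70.9%. Such a peak need not cover the start itself. Genes next to distal regions of ectoderm alone had 72.4% and 61.4%, those next to distal regions in all 7 libraries 80.4% and 76.1%, and those next to any distal region 70.6% and 62.3%. All protein-coding genes had 59.0% and 52.8%. Of the 2926 genes with any member, 1480 (50.6%) also had a region of ectoderm alone, against 32.9% of the 15643 genes with any region. A gene with more regions can more easily hold both kinds, and the genes were not matched for their number of regions.

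Members spread over many genes, with 2076 genes having 1 member and 322 having at least 3. Tenm4, a teneurin gene of 740 kb, had 11 of its 69 regions as members and 11 as regions of ectoderm alone. Nav2, Trio, Gse1, Rad51b and Atxn1, all long genes, had 8 each. Col5a1, which encodes a chain of fibrillar collagen V, had 8 of 22 regions (36.4%) and 1 of ectoderm alone. Its neighbourhood of 100 kb on either side held 9 members, and none of them met an ectoderm peak. All whole teeth ranked above both Sox2-positive libraries at 3 of the 9, and the reverse held at 1. Over all members these shares were 18.5% and 7.56%, and over regions in all 5 postnatal libraries 13.3% and 16.3%. The predicted gene Gm39147, in the neighbourhood of Fgfr1, had 7 of 17 regions (41.2%) and none of ectoderm alone. Within 100 kb of Fgfr1 itself, an FGF receptor gene, there were 4 members of 22 regions, 1 of them a region of 4751 bp at an end of Letm2 (chr8:25576135-25580885) with 3220, 1031, 3810, 5155 and 4854.

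Some members lay in tight groups. Gaps of at most 10 kb joined 733 members into 338 runs of 2 or more, 47 of 3 or more and 8 of 4 or more. The longest, of 6 members, spanned 26.7 kb inside Trio (chr15:27782481-27809221). A run of 4 covered 19.6 kb between Sp2 and Sp6 (chr11:96992640-97012245), and another of 4 covered 20.2 kb inside Col4a2, which encodes a basement membrane collagen (chr8:11392834-11413029). Another member was found within 10 kb of 15.1% of members, a region of ectoderm alone near 11.7% and a region of all 7 libraries near 23.1%. Regions of ectoderm alone had another of their kind that near in 16.5%.

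All 3 genes of the miR-199 family lay under members. MicroRNAs are short RNAs that pair with messenger RNAs through a seed, bases 2 to 8, and miR-199 is known from mesenchymal tissue. Members covered 6 of 919 hairpins searched, regions in all 7 libraries 101, and any region 153. The seed is in capitals below, and both arms are shown because they carry different seeds.
miR-199a-3p and miR-199b-3p: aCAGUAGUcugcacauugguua
miR-199a-5p: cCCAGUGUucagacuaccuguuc
Mir199a-2 (chr1:162217814-162217923) lies with the start of its host Dnm3os, printed above, on the opposite strand inside Dnm3. Its region had 746 and 1922 for the sorted cells, then 3262, 2356 and 1858 for the teeth. Mir199b (chr2:32318460-32318569) lies in the Dnm1 member, the first of all by signal rank. Mir199a-1 (chr9:21496495-21496564) lies in Dnm2, in a region with 1383, 1660, 3647, 2229 and 2253. In each of the 3 the incisor was highest and Sox2-positive replicate 1 lowest. Mir214, next to Mir199a-2 in the same host, lay under no region. The other 3 hairpins were Mir153, Mir5110 and Gm23363, the last in the Dnm1 member too. With windows of 200 bp around summits, no miR-199 hairpin lay under a member.

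Gene lists for tooth tissues and pathways, chosen with earlier results of these data known, place the members by function. A member belonged to a gene if that was the nearest protein-coding gene within 100 kb. Over all 20661 genes, 2926 (14.2%) had a member, and 4326 of 69444 assigned regions (6.23%) were members. Over the genes of any list, 216 of 2608 regions (8.28%) were members. Long genes with many regions weigh more in such shares.

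Dental epithelial progenitor genes had the highest share of the 17 lists, 23 of 174 regions (13.2%, 8.97 to 19.1), at 10 of 20 genes. Ptch1, the receptor of Sonic hedgehog, had 6 of its 23 regions as members and none of ectoderm alone. The best ranked of the 6, 68.4 kb from the gene (chr13:63641522-63642296), had 1679 and 2164 in Sox2-positive cells and 2790, 1980 and 2571 in the teeth. Fgfr2, the FGF receptor of dental epithelium, had 4 members and Vangl2, a gene of planar polarity, 3. Sox2 had 1, at 35.5 kb (chr3:34614059-34614953), with 1383 and 779 in sorted cells and 2318, 2421 and 2690 in the teeth. It was singled out after its values were seen, because Sox2 defines the sort. The sorted cells did not have the highest signal there. The start of Sox2 itself was open in both Sox2-positive and both ectoderm libraries and in no whole tooth.

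Ameloblast and enamel genes had 11 of 119 regions (9.24%, 5.24 to 15.8). Sp6, a transcription factor of enamel formation, had 3 of its 9 regions as members, within 12.4 kb of the gene. The one nearest to it (chr11:97010364-97012245) had 1833, 2698, 2415, 5102 and 5203, with both molars about level and above the other 3 libraries. Satb1 had 3 members inside the gene. Of these, chr17:51765966-51767411 had 732, 1020, 2045, 3096 and 3487, again with the molars highest. Ambn, Dlx3, Msx2, Wdr72 and Lamb3 had 1 each.

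Genes of dental mesenchyme and odontoblasts had 18 of 152 regions (11.8%, 7.62 to 17.9), at 9 of 23 genes. Runx2 and Col1a2, a collagen I chain, had 4 each, and Pdgfra, a receptor that marks mesenchyme, had 3. The member inside Sp7, a factor of osteoblasts and odontoblasts (chr15:102362630-102363534), had 264, 1056, 1173, 595 and 566. Replicate 2 of the Sox2-positive cells and the incisor were high there, and replicate 1 and both molars low. The member 28.9 kb from Pax9 had 372, 1119, 1113, 759 and 696, with the same 2 libraries high. General epithelium had 7 of 152 regions (4.61%), with Pkp1, a desmosome gene, at 3 and Krt14, a keratin of basal cells, at 2. Genes of embryonic facial ectoderm had 11 of 185 (5.95%), 3 of them at Wnt7b and 2 inside Edar, the ectodysplasin receptor.

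Matrix and mineral handling genes had 31 of 264 regions (11.7%, 8.40 to 16.2), at 16 of 26 genes. Ank, a pyrophosphate transporter, had 4 members, and Vdr, the vitamin D receptor, Slc20a2, a phosphate transporter, and Atp2b4, a calcium pump, had 3 each. The member inside Vdr (chr15:97878355-97879210) had 716, 1032, 2682, 1708 and 1300, so that the signal of all 3 whole teeth was above that of both Sox2-positive libraries, although their ranks overlapped. In 6 of the 31, and in none the other way, the ranks of the whole teeth were all above those of the sorted cells. Across all assigned members these shares were 796 and 331 of 4326.

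Among signalling genes, the FGF pathway had 17 of 153 regions (11.1%, 7.05 to 17.1), with Fgfr2 at 4 members and Spred2, an inhibitor of the pathway, at 3. Lists overlap: the 4 members of Fgfr2, 2 of Etv4 and 1 of Etv5 count in the progenitor list too, and the 4 of Runx2 in both the mesenchyme and the RUNX list. The WNT pathway had 22 of 234 (9.40%, 6.29 to 13.8), 5 of them at Tcf7l2, a factor that acts with beta-catenin. For BMP and TGF-beta it was 27 of 335 (8.06%, 5.60 to 11.5). There, the receptor genes Tgfbr2 and Tgfbr3 had 4 each and Acvr1 3, and Bmp7, a ligand, and Smad6, an inhibitor, had 3 each. One Tgfbr3 member (chr5:107166630-107168273) had 563, 2237, 4255, 2620 and 2589, with Sox2-positive replicate 1 far below the others. For Notch it was 15 of 187 (8.02%), 5 of them inside the receptor gene Notch2.

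RUNX, AP-1 and TEAD genes had 18 of 237 regions (7.59%, 4.86 to 11.7), and 13 of these were at Runx1, Runx2 and Runx3 with 6, 4 and 3. A member inside Runx1 (chr16:92650029-92651111) had 1420, 1120, 1932, 2397 and 2176. Late-stage regulators had 20 of 248 (8.06%, 5.28 to 12.1): Nfia had 5, Nfix 4 and Rora, a nuclear receptor gene, 3. Of these 20, 11 met a weak ectoderm peak, among them all 4 in Nfix, against 1227 of all 4326 assigned members. Genes of the early embryo had 2 of 94 (2.13%, 0.585 to 7.43), at Hmga2 and Igf2bp3. Endothelium had 4 of 66, neural and Schwann cells 2 of 42, and blood and immune cells 1 of 24, at Ptprc. No region near the 10 Hox genes was a member, and only 15 regions lay there.

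**Figure D5:**
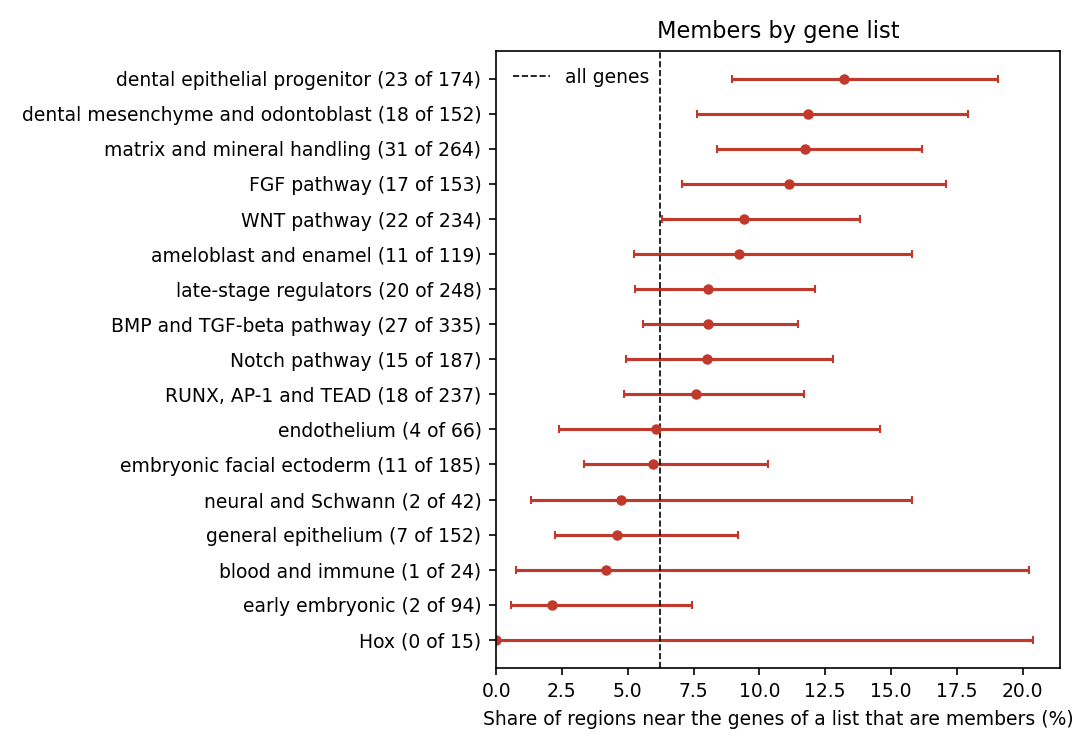
Share of the regions near the genes of each list that are members (%, points) with Wilson 95% intervals (bars) and the counts beside each name. The dashed line is the share over all genes, 6.23%. The intervals of the progenitor, mesenchyme, matrix, FGF and WNT lists lie above it, that of WNT only just (from 6.29). The share over the genes of any list, 8.28%, lies inside the mesenchyme, FGF and WNT intervals. Regions near the same gene are not independent and lists share genes, so the intervals are a description and not a test of any list.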

How the data were processed

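Omni-ATAC libraries of 7 samples were used. Per the submitters' processing notes, the tools were FastQC, Trimmomatic, Bowtie2, deepTools and Genrich and the build mm10; versions, options, read filters and the shift for the transposase are not given in the sources used here. The authors deposited 1 peak list per library, with a peak signal of at least 200 and a −log10 of the p-value, and nothing in the lists shows a scaling of either between libraries. Reads and depth were not used here.

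Peaks on chromosomes 1 to 19 were ranked by −log10 p (ties by signal), the best 38000 per library merged, and genes and starts taken from RefSeq (GRCm38.p6), with Python 3.11.15 and pandas 2.3.3. Gene ends replaced starts for location, since the gene table has no strand. Motifs were planned at summits and searched at start windows instead. A region belonged to the nearest protein-coding gene within 100 kb. Shares have Wilson and differences Newcombe 95% intervals, which cover counting of regions; no p-value was computed. Region calling was tested on simulated lists. Members and lists were chosen with earlier results of these data known. Named regions were the 12 with the best mean signal rank outside chromosome 18, the 10 genes with most members, the 5 with the largest rank gap each way, up to 10 at gene ends, list genes with at least 3 members and 3 on either side of each limit. Not all are printed, and members described beyond these were chosen after their values were seen. Alternatives changed list length, ranking, merging, coverage, windows and single libraries.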

Additional observations from a re-analysis of the deposited data

Results flagged for a closer look

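Chromosome X lies outside the comparisons above. There, 31 of 1181 merged regions (2.62%) had a peak in all 5 postnatal libraries and in neither ectoderm library, against 6.29% on chromosomes 1 to 19. Regions in all 7 libraries made up 29.6% of those on X and regions of ectoderm alone 13.7%. The sex of the animals is not given, and its part in these shares was not tested.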

How the results depend on the processing

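No paired analysis was possible because the counts and shares come from no test, and the numbers that ectoderm and Sox2-positive libraries share do not mark the same animals. The number of members was 1847 with 20000 peaks per library and 3424 to 5925 under the other planned changes. Leaving out each library in turn gave 5117 to 5682. Of the 4853 members, 63.2% were kept with 30000 peaks, 26.8% with 20000, 72.2% with all deposited peaks and 65.9% when a library had to cover 50% of a region. The share at gene ends was 4.33% with 30000 peaks, 8.07% with 20000, 2.72% with all peaks, 7.41% with 200 bp summit windows, 2.06% with a 500 bp and 8.37% with a 2.5 kb end window, and 3.40% to 5.18% without single libraries. The share with a weak ectoderm peak was 36.8%, 52.0%, 25.7% and 22.1% with 30000 peaks, 20000 peaks, ranking by signal and summit windows, and 12.3% to 33.1% without single libraries. It has no value with all peaks, where no peak is left below the limit. Members ranked higher in Sox2-positive cells numbered 123 with 20000 peaks and 851 with all, and 395 to 1462 without single libraries. Those ranked higher in whole teeth numbered 371 with 20000 peaks and 542 with 50% coverage, and 924 to 1976 without single libraries. Members near list genes were 98 with 20000 peaks and 226 to 260 without single libraries. Start windows under members were 120 for distal members alone and 201 to 330 without single libraries. Where fewer peaks are taken, fewer regions can have a peak in all 5 postnatal libraries, but more can lack one in the ectoderm lists. Where a library is left out, a region has fewer conditions to meet. For the other changes the cause was not tested. The count for single lists stayed within 1.5 times in 197 of 238 values, that for motif shares within their interval in 391 of 450.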
